A study of Mus musculus with 3 samples.

Results

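The STAT, IRF and antiviral interferon genes examined here were Stat2, Irf1, Irf7, Irf9, Ifit1, Ifit3, Isg15, Oasl2 and Rsad2. The 9 genes were chosen by symbol, with earlier results of these data known, and all 9 were found among the 32227 genes of the count tables. Counts of the 9 genes set against shares of all genes are therefore a description. They were read in nuclear RNA of lumbar dorsal root ganglia (DRG, levels L3 to L5), which hold the somas of sensory neurons, from wild-type C57BL/6 mice. There was 1 library of adult mice (3 months) and 2 libraries of aged mice (21 months), with no other allele or agent named in the labels. The series' design text states a lower age for the aged group, and the ages on the sample labels were used. The number of mice pooled in a library is not given in the sources used here, so the spread between the aged libraries may be partly technical. Below, 3 values in a row stand for the adult library and then for the aged replicates 1 and 2. The 9 genes held 14190, 11087 and 7159 UMIs (unique molecular identifiers, 1 for each captured transcript) in 11518, 5130 and 2611 nuclei, defined as barcodes with more than 1000 genes.

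An interferon bound to its receptor activates Janus kinases, which phosphorylate STAT proteins. Stat2 and Irf9 are parts of the complex ISGF3, which binds the interferon-stimulated response element (ISRE) in promoters of antiviral genes. Type II interferon acts mainly through the gamma-activated site (GAS) and induces Irf1, a transcription factor. Irf7 is the factor that amplifies type I interferon production. Ifit1 and Ifit3 belong to a family of proteins that bind viral RNA or assist that binding, and Isg15 is a ubiquitin-like modifier. Oasl2 is a relative of the oligoadenylate synthetases, and Rsad2 encodes viperin, an antiviral enzyme.

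The promoters are described first, because several carry these elements. Sequences are shown for the genes with a match in the last 160 bases before the start. RefSeq promoter windows (build GRCm38.p6) from 250 bases before to 50 bases after each start were searched on both strands. The ISRE core was spelled GAAA, any 2 bases, GAAA, and the GAS core TTC, any 3 bases, GAA. An ISRE core was present for 5 of the 9 genes (Stat2, Ifit1, Ifit3, Isg15 and Rsad2), and for 3.99% of all 27025 genes with a window. A GAS core was present for Irf1, at its first start, and for 9.55% of all genes. No match lay in the windows of Irf7, Irf9 or Oasl2. The last 160 bases before the start follow, 5′ to 3′ along the gene's strand, with matches in capitals. Read on the opposite strand, the ISRE core appears as a run that starts with TTTC. They are Ifit3 (chr19:34583369-34583528, plus strand), Ifit1 (chr19:34640729-34640888, plus strand), Isg15 (chr4:156200819-156200978, minus strand), Rsad2 (chr12:26456453-26456612, minus strand) and Irf1 (chr11:53769854-53770013, plus strand).
Ifit3: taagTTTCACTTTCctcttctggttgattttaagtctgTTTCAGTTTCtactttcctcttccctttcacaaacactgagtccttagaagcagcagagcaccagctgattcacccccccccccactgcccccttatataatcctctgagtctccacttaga
Ifit1: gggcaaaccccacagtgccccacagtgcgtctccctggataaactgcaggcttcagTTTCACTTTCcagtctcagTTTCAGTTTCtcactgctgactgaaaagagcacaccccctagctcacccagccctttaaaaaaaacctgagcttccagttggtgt
Isg15: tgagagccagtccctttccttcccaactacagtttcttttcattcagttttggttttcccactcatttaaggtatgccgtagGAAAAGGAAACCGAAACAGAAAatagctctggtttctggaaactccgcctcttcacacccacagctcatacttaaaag
Rsad2: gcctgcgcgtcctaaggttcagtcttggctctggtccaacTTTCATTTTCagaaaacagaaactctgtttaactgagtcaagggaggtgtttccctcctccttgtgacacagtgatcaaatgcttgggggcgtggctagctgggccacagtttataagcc
Irf1: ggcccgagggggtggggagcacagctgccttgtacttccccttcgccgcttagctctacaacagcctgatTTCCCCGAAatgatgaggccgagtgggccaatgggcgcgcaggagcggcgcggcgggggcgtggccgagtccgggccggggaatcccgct
Ifit3 and Ifit1 each held 2 ISRE cores, and Isg15 held 3 that overlap each other. The single core of Stat2 lay further upstream, at positions -222 to -213 from the start, and is outside the bases shown. A match of letters is a description and does not show that a factor binds there.

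**Figure D1:**
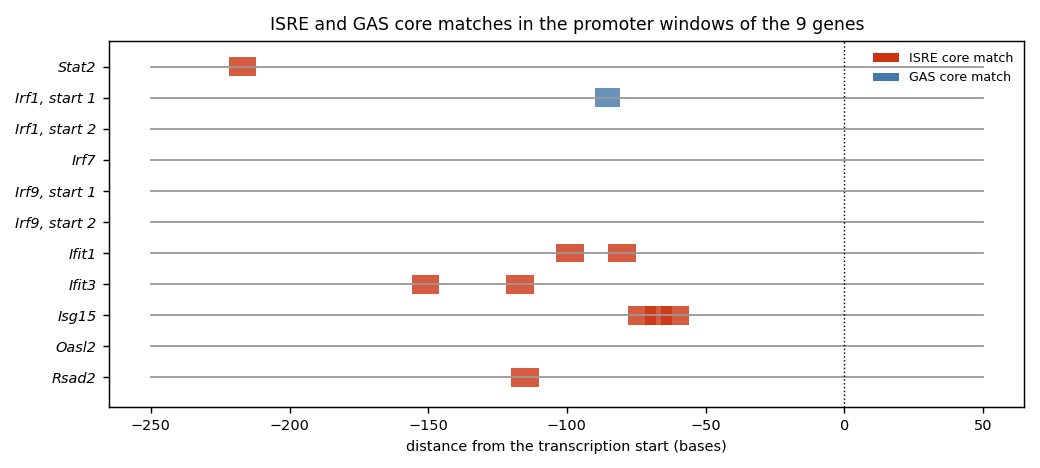
Position of ISRE core matches (red) and GAS core matches (blue) in the promoter windows of the 9 genes, in bases from the transcription start (dotted line at 0). Each grey line is 1 window, and Irf1 and Irf9 have 2 starts. The matches of Ifit1, Ifit3 and Isg15 lie between positions -156 and -57.

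By their Ensembl identifiers in GENCODE M21 (GRCm38), Ifit3 (chr19:34583531-34588731) and Ifit1 (chr19:34640871-34650009) lie near each other on the plus strand. Stat2 lies at chr10:128270559-128292849, Irf1 at chr11:53770014-53778374, Irf9 at chr14:55603571-55610030 and Oasl2 at chr5:114896936-114912234, all on the plus strand. Irf7 (chr7:141262706-141266481), Isg15 (chr4:156199424-156200818) and Rsad2 (chr12:26442746-26456452) are on the minus strand. Exons of Irf9 overlap those of Rnf31 on the same strand, and exons of Irf7 and Irf1 overlap Phrf1 and Gm17334 on the opposite strand. Use of strand in the counting is not stated, and these 3 genes may share UMIs with their neighbours. Ifit3 has a near-identical copy, Ifit3b, with which its UMIs could be split.

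Nuclei were clustered without the 9 genes and the other interferon-pathway genes, and clusters were named from marker genes. The classes compared were satellite glial cell (SGC)-like, non-myelinating Schwann cell (NMSC)-like, myelinating Schwann cell (MSC)-like, neuron-like, fibroblast-like, endothelial-like, myeloid-like and lymphocyte-like, 17315 nuclei in all. SGCs wrap the somas of sensory neurons, and Schwann cells accompany their axons. SGC-like nuclei numbered 2937, 418 and 223, with a median of 3170, 7287 and 8139 UMIs. The 5 SGC markers summed to 1282 to 1508 counts per 1000000 UMIs (CPM) in SGC-like sums and to 893 to 1155 CPM in NMSC-like sums, and to 1033 to 1281 CPM in fibroblast-like sums. The 6 NMSC markers summed to 18662, 14473 and 14440 CPM in SGC-like and to 16929, 18641 and 17863 CPM in NMSC-like sums. The summed SGC markers thus do not set SGC-like sums clearly apart from these classes, nor do the NMSC markers from NMSC-like sums. Fibroblast markers did separate fibroblast-like sums, at 3747.5 CPM or more there and at most 221 CPM in SGC-like sums. All samples are labelled male, but Xist, a transcript of the inactive X chromosome, was at 1414, 844 and 929 CPM. The Y-linked gene Ddx3y was at 20.6, 13.2 and 7.87 CPM. All 3 libraries thus go against their label for sex, and 1 kept barcode was shared between the adult library and each aged library. Because the adult group is 1 library, its age and whatever else sets that library apart cannot be told apart.

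The level of the 9 genes in each class was compared first, with UMIs summed per class and library and a class tested against the mean of the other 7. The endothelial-like sums stood highest. In them 6 of the 9 genes were higher by the quasi-likelihood test of edgeR with p adjusted over all genes (Benjamini-Hochberg), against 14.2% of the 14446 genes tested. Rsad2 was at 158, 268 and 331 CPM in endothelial-like sums. The next class, myeloid-like, held 15, 11.6 and 19.5 CPM of it, and neuron-like sums 3.23, 3.70 and 4.75 CPM. Every endothelial-like library thus lay above all libraries of the other 7 classes, and the log2 difference was 4.84 (SE 0.19, edgeR adjusted p = 2.27e-15). A UMI of Rsad2 was seen in 23.3%, 44.6% and 39.3% of endothelial-like nuclei, with exact Clopper-Pearson 95% intervals of 17.7 to 29.7%, 37.3 to 52.1% and 27.1 to 52.7%, which cover counting error only. After every nucleus was thinned to 1000 UMIs the shares were 14.1%, 16.3% and 24.6%. In neuron-like nuclei, where the mean level of Rsad2 was lowest, thinned shares were 0.372%, 0.345% and 0.317%. Free RNA, read from barcodes of at most 100 UMIs, held Rsad2 at 11.2, 14.4 and 18.1 CPM, above its neuron-like and below its endothelial-like level. Median depth without thinning was 2363, 3490 and 3278 UMIs in endothelial-like nuclei and 7854, 5874 and 7915 in neuron-like nuclei.

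The other 5 genes higher in endothelial-like sums were Isg15, Irf7, Oasl2, Ifit1 and Irf1. Isg15 was at 22.4, 29.2 and 19.1 CPM there, 2.02 log2 units (SE 0.38) above the mean of the other classes. Oasl2 was at 91.0, 113 and 130 CPM, 1.42 log2 units (SE 0.24) above it. Irf7 (difference 1.73, SE 0.41), Ifit1 (1.38, SE 0.36) and Irf1 (0.95, SE 0.26) were also higher on the log2 scale. The call of Irf1 was lost without the adult library (edgeR adjusted p = 0.0591) and without aged replicate 2 (0.0884). Stat2, Irf9 and Ifit3 did not pass in endothelial-like sums. When each nucleus was named by its own markers, Stat2 was called higher (0.83, edgeR adjusted p = 0.00906) and Isg15 could not be tested. Ifit1 was not called there, at a larger difference with a wider SE (2.35, SE 0.94, edgeR adjusted p = 0.0824). The 6 endothelial markers summed to 4823, 4365 and 6304 CPM in endothelial-like sums and to at most 120 CPM in the sums of the 3 glial classes. Erythroid markers summed to 765, 852 and 1986 CPM in endothelial-like sums, in the same order as Rsad2, and their part in its level was not tested.

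Neuron-like sums stood at the other end. In them 7 of the 9 genes were lower by the same edgeR test, against 30% of all genes. Irf1 showed the largest difference, with 6.46, 8.81 and 7.29 CPM in neuron-like sums and between 19.5 and 105 CPM in every library of the other classes. Its log2 difference was -2.63 (SE 0.24, edgeR adjusted p = 1.34e-09). Isg15 (-2.33, SE 0.34), Irf7 (-1.94, SE 0.34) and Rsad2 (-1.54, SE 0.23) followed on the log2 scale. Ifit3, Oasl2 and Irf9 gave -1.31, -0.99 and -0.57, and Ifit3 no longer passed without aged replicate 1 (-0.79, edgeR adjusted p = 0.189), nor Oasl2 when each nucleus was named by its own markers (-0.56, 0.128). Stat2 (71.6, 76.8 and 84.3 CPM in neuron-like sums) and Ifit1 (16.9, 15.1 and 20.01 CPM) were the genes that did not pass there. Ifit1 was called higher in neuron-like sums without aged replicate 1 (log2 difference 0.96, edgeR adjusted p = 0.0127) and when each nucleus was named by its own markers (1.97, 0.0201).

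Immune-like classes differed from each other by gene. Irf7 was at 41.2, 19.4 and 19.5 CPM in myeloid-like sums (log2 difference 2.02, SE 0.40) and at 15.3, 13.5 and 36.1 CPM in lymphocyte-like sums (1.63, SE 0.42). The Irf7 means of the myeloid-like (26.7 CPM ± 12.6 SD, n = 3), lymphocyte-like (21.6 ± 12.6) and endothelial-like sums (21.3 ± 7.08) lay within their spread over libraries. Lymphocyte-like sums were higher for 3 of the 9 genes (Irf7, Irf1 and Irf9), against 13.7% of all genes, but each of these calls was lost without aged replicate 2, and when each nucleus was named by its own markers, lymphocyte-like Irf7 turned to -0.12 and the myeloid-like Irf7 call was lost (1.54, edgeR adjusted p = 0.128). Ifit1 was near 0 in myeloid-like sums, with 0, 5 and 1 UMIs in the 3 libraries, and its fitted log2 difference was -2.90 (SE 0.66). Ifit3 was lower there too, with 1, 9 and 0 UMIs (log2 difference -1.88, SE 0.64), but not without aged replicate 2 (-1.30, edgeR adjusted p = 0.186). In myeloid-like sums 1 of the 9 genes was thus higher and 2 were lower, where 3716 of all 14446 genes were higher and 3879 lower.

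In the glial classes and fibroblasts several calls depended on the library. NMSC-like sums were higher for 3 of the 9 genes (Ifit3, Isg15 and Ifit1), against 13.2% of all genes, and none of the 3 passed without aged replicate 1. MSC-like sums were lower for Oasl2 (20.8, 24.7 and 9.23 CPM, log2 difference -1.28, SE 0.27) and Stat2 (-0.66, SE 0.20), and higher for Ifit3 (1.01, SE 0.34) and Isg15 (0.88, SE 0.35). Of all 14446 genes tested, 2771 were lower and 2731 higher in MSC-like sums. Of the 4 MSC-like calls among the 9 genes, that of Oasl2 alone held without either aged library. Without aged replicate 1 the edgeR adjusted p was 0.134 for Stat2, 0.243 for Ifit3 and 0.192 for Isg15. Fibroblast-like sums were higher for Oasl2 (0.69, SE 0.21) and lower for Rsad2 (-1.56, SE 0.35), where 2675 of all genes were higher and 2176 lower. The Oasl2 call was lost without aged replicate 1 (edgeR adjusted p = 0.139). The Rsad2 call was lost when each nucleus was named by its own markers, a marker gate (0.187). SGC-like sums were lower for Irf7 (1.52, 2.55 and 3.87 CPM, -1.42, SE 0.41) and Rsad2 (3.35, 7.66 and 6.78 CPM, -1.01, SE 0.28), where 3002 of all genes were lower. The call of Irf7 was lost without aged replicate 1 (edgeR adjusted p = 0.125), and without the adult library Irf1 (0.75) and Stat2 (0.62) were called higher. In order of mean level, Oasl2 ran from endothelial-like (111 CPM ± 19.8 SD, n = 3) through myeloid-like (71.3 ± 32.4) and fibroblast-like (68.1 ± 10.1) to MSC-like sums (18.2 ± 8.04). Neighbours in that order lay within each other's spread, the endothelial-like class included, since the adult myeloid-like value of 109 CPM was above the adult endothelial-like value of 91.0 CPM. The level of Stat2 varied least between classes, from 107 CPM ± 33.7 (SD, n = 3) in myeloid-like to 55.4 ± 8.99 in MSC-like sums. Neighbouring classes lay within each other's spread, except that every MSC-like value lay below every neuron-like one (77.6 ± 6.35).

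**Figure D2:**
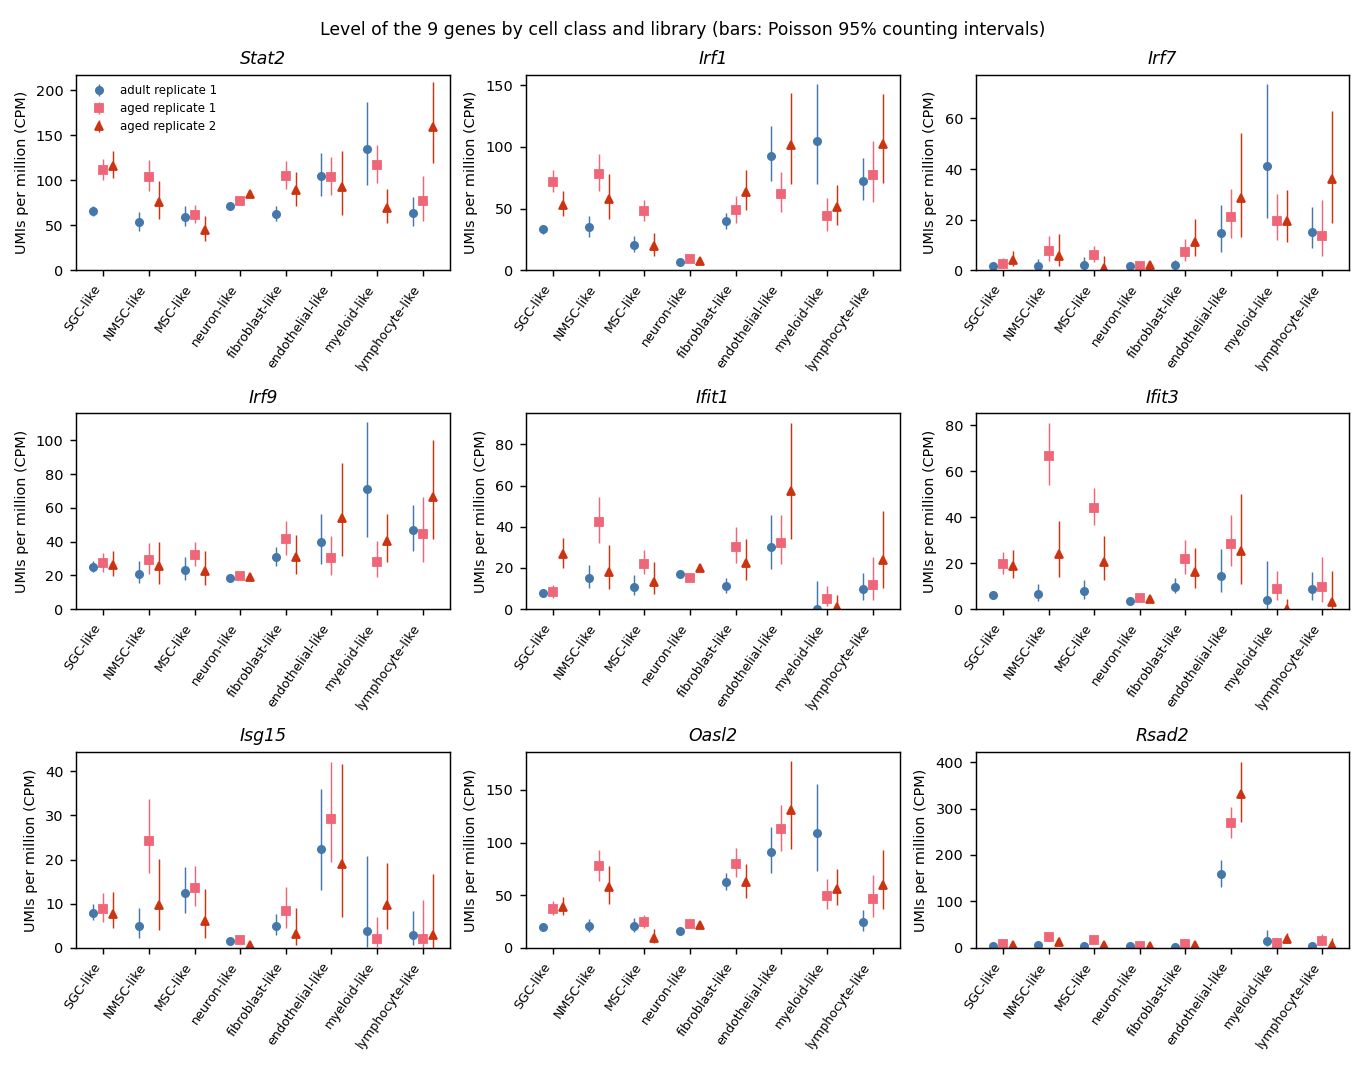
Counts per 1000000 UMIs (CPM, linear axes from 0) of each of the 9 genes in the 8 cell classes, 1 point for each library with its Poisson 95% counting interval. The 3 endothelial-like points of Rsad2 sit between 158 and 331 CPM, above all other classes, and Irf1 is lowest in the neuron-like class.

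The study asked how SGCs change with age, and the age difference of the 9 genes was tested within each class. In SGC-like sums 4 of the 9 genes rose with age (Stat2, Irf1, Ifit3 and Oasl2), against 5.3% of the 14451 genes tested, and none fell. As the 9 genes were chosen with earlier results of these data known, this count and those of the other classes are a description. Stat2 was at 65.5, 111 and 116 CPM. Both aged values lay above the adult one, with a log2 fold change of 0.62 (SE 0.13, edgeR adjusted p = 0.00934). Irf1 was at 33.1, 71.7 and 53.3 CPM (0.77, SE 0.18, edgeR adjusted p = 0.0166), so that the aged libraries differed from each other as well. Ifit3 showed the largest change of the 4, from 6.19 CPM (61 UMIs) to 19.6 CPM (69 UMIs) and 18.9 CPM (39 UMIs), a log2 fold change of 1.46 (SE 0.28, edgeR adjusted p = 0.005). Oasl2 was at 20.3, 37.2 and 39.2 CPM (0.73, SE 0.19, edgeR adjusted p = 0.0240).

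The other 5 genes did not pass in SGC-like sums. Irf9 was at 25.2, 27.2 and 26.2 CPM and Isg15 at 8.01, 8.79 and 7.75 CPM, with log2 fold changes of -0.08 (SE 0.20) and -0.11 (SE 0.33). Irf7 (15, 9 and 8 UMIs) and Rsad2 (33, 27 and 14 UMIs) had fitted log2 fold changes of 0.84 (SE 0.75) and 0.95 (SE 0.45). Ifit1 was at 7.71, 8.22 and 26.6 CPM, so that its value of 0.88 (SE 0.47) rested on aged replicate 2 and was -0.06 without it. The median log2 fold change was 0.77 over the 9 genes and 0.00 over all genes tested. Folds from CPM stand 0.17 log2 units above the fitted ones in SGC-like sums, the shift between CPM and the TMM scaling of the fit, and -0.06 to 0.19 units from them in the other classes.

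The 4 SGC-like calls depended on the test. With 1 residual degree of freedom DESeq2 gave 0 calls among the 9 genes (smallest adjusted p = 0.180). Of the 9 genes, 3 had an unadjusted DESeq2 p under 0.05, as did 1261 of all 14451 genes. DESeq2 called 178 genes higher in all, where edgeR called 766. A fit of all classes together also gave 0, and called 208 of all 14446 genes higher. Thinning to 1000 UMIs gave 1 (Irf1) of the 4 genes that could still be tested, and 183 of all 8039 genes. The log2 fold changes of the 4 genes stayed positive under every alternative that gave a value, which for Ifit3 leaves out thinning, and leaving out an aged library gave 0.61 to 0.66 for Stat2, 1.445 to 1.504 for Ifit3, 0.72 to 0.79 for Oasl2 and 0.53 to 0.96 for Irf1. Free RNA held Ifit3 at 10.8, 16.3 and 12.8 CPM and Stat2 at 56.9, 53.2 and 64.2 CPM. Ifit3 in adult SGC-like sums thus lay below its free level and in aged ones above it. Free Oasl2 was at 30.1, 38.3 and 49.6 CPM, above its SGC-like level in every library, and free Irf1 was at most 17.8 CPM. With free RNA subtracted at an assumed share of 10% of UMIs, 3 of the 4 calls held, and Oasl2 did not (edgeR adjusted p = 0.0635). The 8 myeloid markers summed to 29.1 CPM in adult and to 13.6 and 19.9 CPM in aged SGC-like sums, and the marker Cd163 was at 0 in aged replicate 2. Neuron markers summed to 1173, 1564 and 1482 CPM and cycling markers to 6.69, 15 and 14.0 CPM in SGC-like sums, higher in both aged libraries, and NMSC markers were lower in both. The part of these markers in the 4 rises was not tested.

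In NMSC-like sums 3 of the 9 genes rose with age, against 4.65% of the 12613 genes tested. Ifit3 rose, at 6.35, 66.5 and 23.8 CPM (log2 fold change 2.73, SE 0.45, edgeR adjusted p = 6.00e-08). It was the largest change of the 9 genes in any class that passed. Oasl2 was at 20.5, 77.6 and 57.5 CPM (1.55, SE 0.34, edgeR adjusted p = 0.000200), and Isg15 at 4.89, 24.2 and 9.81 CPM (1.72, SE 0.60, edgeR adjusted p = 0.0449). Aged replicate 1 was the higher of the aged libraries for every one of the 9 genes in this class. Without it the log2 fold change fell to 1.72 for Ifit3, 1.31 for Oasl2 and 0.82 for Isg15. The edgeR p-values here rest almost wholly on the spread shared across genes and do not measure the gap between the aged libraries. The values of the other 6 genes were positive and did not pass, among them Rsad2 with 5.38, 22.8 and 12.6 CPM (1.60, SE 0.59, edgeR adjusted p = 0.0601). The median was 1.55 over the 9 genes and 0.00 over all genes. DESeq2 again gave 0 calls among the 9, with an adjusted p of 0.0541 for Ifit3. An unadjusted DESeq2 p under 0.05 was seen for 2 of the 9 genes and for 835 of all 12613. By edgeR with no filter on low counts there were also 0 calls, but then 0 of all 22072 genes were called higher. At over 2000 genes per nucleus there were 0 calls, where 254 of all 9816 genes were higher. Under the marker gate there was 1, where 416 of all 11156 genes were higher. Myeloid markers summed to 35.7, 71.3 and 30.8 CPM in NMSC-like sums and MSC markers to 1284, 1916 and 1420 CPM, both highest in the library where the 9 genes were highest. Fibroblast markers summed to 393, 1242 and 1150 CPM and cycling markers to 16.1, 76.9 and 78.5 CPM, higher in both aged libraries. The part of these markers in the result was not tested.

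In MSC-like sums only Ifit3 of the 9 genes rose, against 3.09% of the 13575 genes tested. It was at 7.92, 44.1 and 20.5 CPM (log2 fold change 2.06, SE 0.41, edgeR adjusted p = 0.00159), and at 1.27 without aged replicate 1. The call was lost by DESeq2 (adjusted p = 0.403), after thinning (edgeR adjusted p = 0.0740) and in the fit of all classes (0.0893). The 6 MSC markers summed to 40614, 16722 and 15208 CPM in the same sums, and their part in the result was not tested. Stat2 (59.4, 61.7 and 45.1 CPM) and Oasl2 (20.8, 24.7 and 9.23 CPM) gave -0.20 each and did not pass. Aged replicate 2 lay below the adult library for both. Over all 9 genes the summed level was 162, 269 and 144 CPM in MSC-like sums, 163, 452 and 286 CPM in NMSC-like sums and 171, 294 and 299 CPM in SGC-like sums.

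With classes from the clusters, no gene of the 9 passed in neuron-like, fibroblast-like, endothelial-like or lymphocyte-like sums by edgeR or by DESeq2. The shares of all genes that rose there were 1.51%, 1.83%, 0.204% and 0.969%. At an unadjusted edgeR p under 0.05 there were 0, 2 and 1 of the 9 genes in the first 3 classes. Of all genes, 4097 of 21719, 1692 of 13697 and 992 of 11267 passed that threshold in them. In lymphocyte-like sums 0 of the 6 genes that could be tested passed it, and 1260 of all 10420 genes. Neuron-like values were the closest to 0, with a median log2 fold change of 0.14 and Oasl2 highest at 0.35 (SE 0.24, 95% interval of about -0.12 to 0.82). Fibroblast-like values were all positive, with a median of 0.56, and Ifit1 came nearest (11.1, 30.1 and 22.5 CPM, 1.18, SE 0.43, edgeR adjusted p = 0.137). Endothelial-like Rsad2 was higher in both aged libraries than in the adult one (0.86, SE 0.39) with an edgeR adjusted p of 0.495. Under the marker gate 1 of the 4 genes tested in endothelial-like sums was called higher (edgeR adjusted p = 0.0484). It was the only positive value of the 4, and 122 of all 5362 genes were called higher there. In simulated counts with an assumed spread, the test recovered 75.3% of changes of 1 log2 unit in neuron-like and 58.8% in fibroblast-like sums. It recovered 28.3% in endothelial-like and 25.6% in lymphocyte-like sums, and 52.8% in SGC-like sums. The same spread was assumed in every class and was not taken from the data. Changed genes were drawn at random, so these shares are not those of the 9 genes. Lack of a call in neuron-like, fibroblast-like, endothelial-like or lymphocyte-like sums thus does not show that there was no change.

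In myeloid-like sums the direction depended on how nuclei were named. Of the 6 genes tested there 1 fell, Irf1, against 4.96% of the 10910 genes tested, and none rose, against 5.17%. In the same simulated counts the test recovered 1.01% of changes of 1 log2 unit and 30.7% of changes of 2 log2 units in myeloid-like sums. Irf1 was at 105, 43.6 and 51.1 CPM (28, 45 and 42 UMIs; log2 fold change -1.11, SE 0.35, edgeR adjusted p = 0.0478). Oasl2 was at 109, 49.4 and 56.0 CPM (-1.001, SE 0.34, edgeR adjusted p = 0.0678), and Irf9 at 71.1, 28.1 and 40.2 CPM (-1.03, SE 0.43, edgeR adjusted p = 0.151). The adult sum held only 99 nuclei, and the Irf1 call was lost under 7 of the 8 alternatives that gave a test. Under the marker gate (21, 63 and 54 nuclei) Irf1 turned to 1.34, 3 of 4 genes tested were positive and the median was 0.58, against -1.01 from the clusters. The class's own myeloid markers summed to 2920, 1800 and 2008 CPM, SGC markers to 554, 213 and 155 CPM and neuron markers to 1599, 853 and 654 CPM in myeloid-like sums, all lower in both aged libraries, as were the other marker lists except the cycling one. Their part in these values was not tested.

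**Figure D3:**
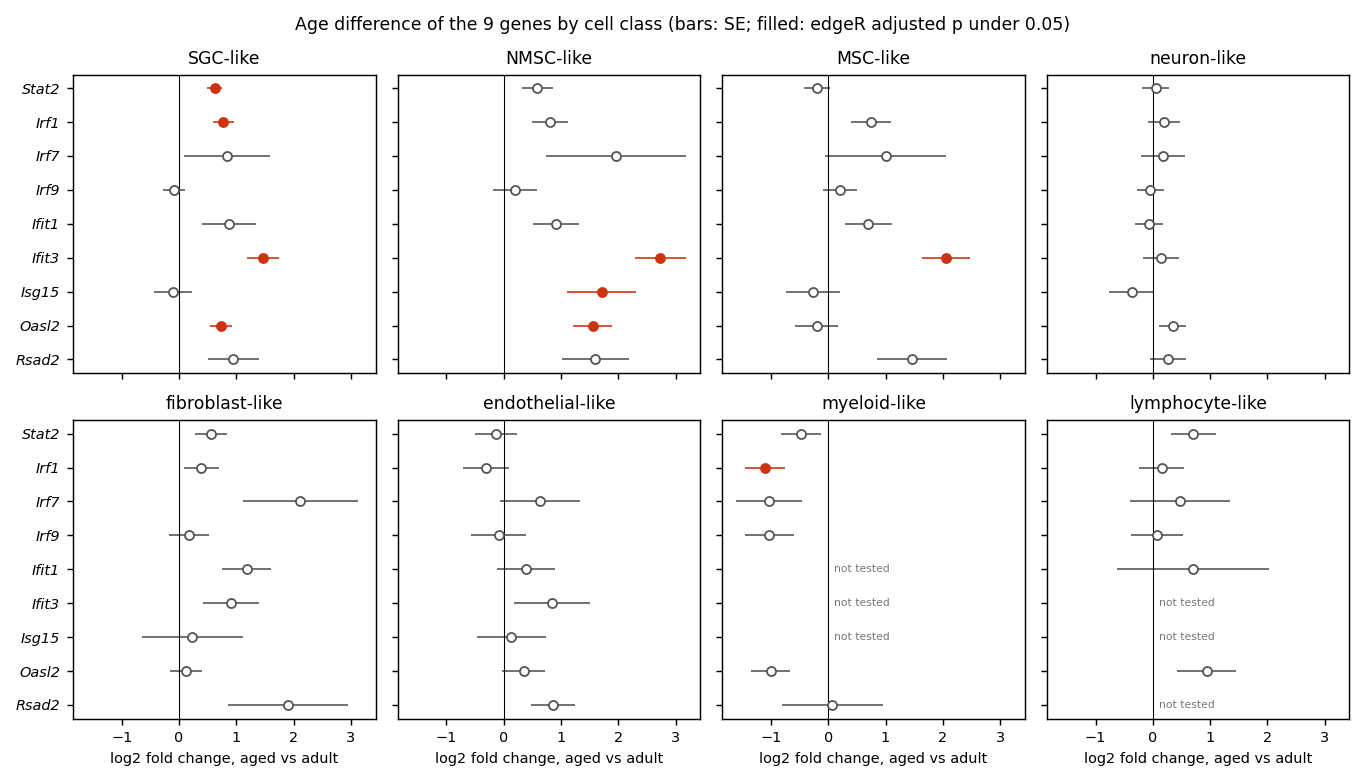
Log2 fold change of the 9 genes, aged against adult, in each of the 8 classes, with SE bars, and filled red points for an edgeR adjusted p under 0.05. Filled points lie to the right of 0 in the 3 glial classes (4, 3 and 1 genes), and the 1 filled myeloid-like point lies to the left.

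Whether the age difference was particular to a class was tested as a class's log2 fold change minus the mean of the other 7. None of the 9 genes passed in SGC-like, NMSC-like, MSC-like or myeloid-like sums by edgeR, where 0.616%, 0.81%, 0.263% and 2.12% of the 14446 genes did. At an unadjusted edgeR p under 0.05 there were 0, 3, 0 and 4 of the 9 genes, and 1495, 1407, 1062 and 1999 of all 14446. The nearest were Oasl2 in myeloid-like (-1.49, SE 0.43, edgeR adjusted p = 0.0782) and in NMSC-like sums (1.37, SE 0.37, edgeR adjusted p = 0.102). In SGC-like sums the smallest edgeR adjusted p of the 9 genes was 0.542. The 4 SGC-like rises are therefore not shown to differ from the mean of the other classes.

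The spread of the UMIs over nuclei was examined next. UMIs of 3 or more of the 9 genes were seen in 1.67% of adult SGC-like nuclei and in 18.7% and 22.4% of aged ones. Aged SGC-like nuclei were more deeply sequenced, and after thinning to 1000 UMIs the shares were 0.0681%, 0% (0 of 418 nuclei, which allows up to 0.718%) and 0.448%. Thinned shares of nuclei with 2 or more genes were 1.29%, 4.55% and 2.69% in SGC-like nuclei. They were 1.60%, 8.28% and 2.78% in NMSC-like and 0.305%, 4.61% and 0.995% in MSC-like nuclei, highest in aged replicate 1 in each. In neuron-like nuclei the thinned shares were 1.07%, 0.777% and 1.11%. For Ifit3 alone, 1.77%, 12.4% and 13% of SGC-like nuclei held a UMI, and 0.613%, 1.20% and 2.24% after thinning (18, 5 and 5 nuclei).

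**Figure D4:**
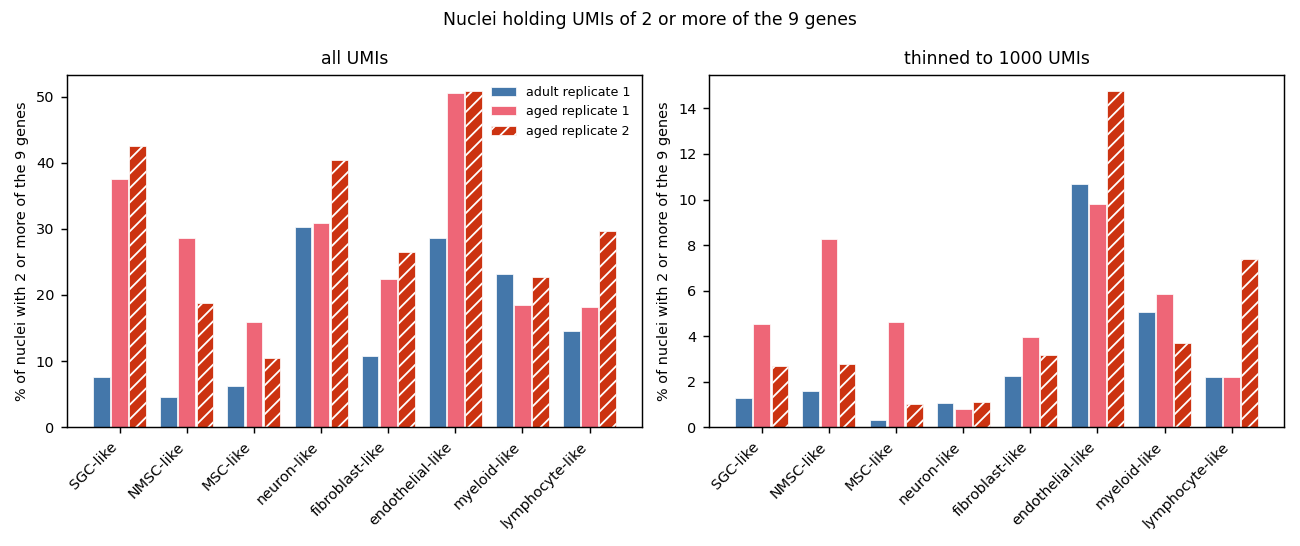
Percent of nuclei with UMIs of 2 or more of the 9 genes in each class and library, from all UMIs (left) and after thinning every nucleus to 1000 UMIs (right, on a different scale). After thinning, the endothelial-like bars are the tallest (10.7%, 9.78% and 14.8%), and aged replicate 1 is highest in the 3 glial classes.

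The rest of the pathway was read from gene lists. Of 10 interferon genes none reached the filter of the test in any class. Their UMIs over all kept nuclei were 8, 3 and 0, and Ifng held 6, 1 and 0 of these. In SGC-like sums, where 5.3% of all genes rose, 1 of 8 receptors and kinases tested rose, the kinase Jak1 (log2 fold change 0.54). Among 4 other IRF genes tested in SGC-like sums none rose and Irf3, the factor that acts early after viral sensing, fell (-0.87), where 6.63% of all genes fell.

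Of 8 sensors of nucleic acid tested in SGC-like sums 2 rose, Zbp1 (1.83, 19.9 and 17.9 CPM, log2 fold change 3.19) and the RNA sensor Ifih1 (0.77). Of 7 negative regulators 1 rose, Trim30a (1.71). Of 18 other antiviral genes tested 7 rose, against the same 5.3% of all genes, and none fell. Those with the smallest p were Herc6 (1.13), Ddx60 (1.01), Cmpk2 (1.58), Rtp4 (0.94), Ifit3b (2.03) and Xaf1 (0.55). Ifit3b, the copy of Ifit3, was at 1.52, 6.24 and 8.23 CPM in SGC-like sums, in the same direction as Ifit3. All 10 interferon-inducible GTPases tested rose there, by 1.35 to 4.73 log2 units. The rise was not particular to SGC-like sums. In NMSC-like sums 10 of 10 rose, in MSC-like 5 of 9, and in neuron-like and fibroblast-like 6 of 10 each. Lymphocyte-like sums had 4 of 9, endothelial-like 0 of 10 and myeloid-like 0 of 9. These lists were drawn up with results of these libraries known, so their counts are a description.

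Across the 24 sums of class and library, the genes whose level, log2(CPM + 10), ran most like the summed level of the 9 were Gbp4 (Pearson r = 0.94), Tgtp1 (0.92), Iigp1 (0.89), Gbp5 (0.88) and Phf11d (0.87). Sums of 1 library share its depth and its free RNA, so these are descriptions.

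Within neurons, Ifit1 was uneven. Over 16 neuron-like clusters its mean level ran from 3.41 to 131 CPM, 38.4 times from lowest to highest, a wider ratio than for the other 7 genes with a UMI in every cluster (2.25 to 15.2 times). The highest cluster was led by Mrgprd, which marks non-peptidergic nociceptors, and Serpina1e. It held Ifit1 at 94.4, 78.3 and 221 CPM (47, 89 and 117 UMIs). The next clusters were those led by Grik1 and Gm20468, with Mrgprd also among the leading genes (56.2, 52.2 and 36.1 CPM), by Htr3a and Kcnv1 (56.8, 18.1 and 38.5 CPM) and by EU599041 and Lpar3 (35.7, 16.7 and 29.5 CPM). The remaining 12 clusters had means of 16.3 CPM or less. Every library was highest in the Mrgprd and Serpina1e cluster, whose nuclei held little Malat1, a nuclear RNA (0.326% of UMIs, against 2.31% in the Grik1 cluster). The clusters were singled out after their values were seen, so no test is given.

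**Figure D5:**
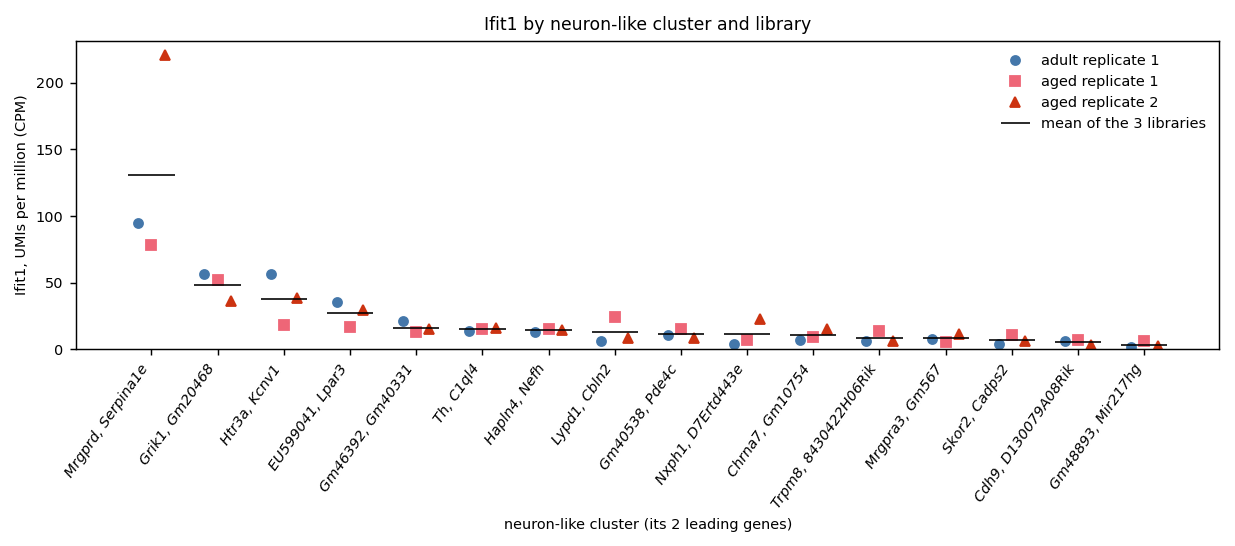
Ifit1 in counts per 1000000 UMIs (CPM, linear axis from 0) in the 16 neuron-like clusters, named by their 2 leading genes and ordered by mean, with 1 point for each library and a bar at the mean. The Mrgprd and Serpina1e cluster lies at 78.3 to 221 CPM, and 12 clusters have means of 16.3 CPM or less.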

How the data were processed

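Nuclei were captured with PIP-seq, and the authors made the deposited UMI counts per gene and barcode with Pipseeker. The submitters' processing notes name the build mm10, and the annotation is not given in the sources used here. Total counts were 167664164 UMIs (adult), 95647106 (aged replicate 1) and 69045987 (aged replicate 2). Barcodes with more than 1000 genes were kept. Seurat 5.3.0 served for SCTransform, for RPCA integration of the ages over 30 components and for clustering (resolution 0.8). A class needed 3 markers, each over 1 log2 unit above the other clusters (neuron markers over 2 log2 units above the 25th percentile) in at least 10% of nuclei. This naming rule was set after the clusters had been seen. Clusters with 3 markers of classes from different lineages (glial, neuronal, stromal, immune) were left out as mixed, and no doublet caller was run. Between glial classes the larger share of the marker list decided, and the SGC-like cluster held 3 of 5 SGC and 3 of 6 NMSC markers. UMIs were summed per class and library, since nuclei are not replicates, and tested with edgeR 4.0.16 (TMM, quasi-likelihood, adjusted p under 0.05, 1 residual degree of freedom within a class). A check on simulated counts came first, and its recovery differed between classes, as given above. DESeq2 1.42.0 was an alternative. The Wilcoxon test on nuclei of the study's methods was not used. Free RNA is the profile of barcodes of at most 100 UMIs. All 9 genes are reported, and genes of the lists are named where they passed in SGC-like sums, at most the 6 with the smallest p in a list. The list of other STAT factors is not reported here. The 9 genes and the lists were chosen with earlier results of these data known. Gene positions are from GENCODE M21, which held 99.6% of the gene identifiers.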

Additional observations from a re-analysis of the deposited data

Results flagged for a closer look

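Between SGC-like and myeloid-like sums, 5 genes ran in opposite directions in CPM, with every aged library above the adult one in SGC-like sums and below it in myeloid-like sums. These genes were picked by this pattern, and the share of all genes that show it was not counted, so the count is a description. Irf7 rested on 32 UMIs over the libraries in SGC-like sums. The log2 fold change in SGC-like sums exceeded that in myeloid-like sums by 1.10 for Stat2, 1.88 for Irf1, 1.87 for Irf7, 0.94 for Irf9 and 1.73 for Oasl2. For Irf9 the opposite direction holds in CPM alone, since its TMM-scaled value in SGC-like sums was -0.08. When each nucleus was named by its own markers, the myeloid-like side turned, with Irf1 at 1.34 and 3 of the 4 genes tested positive (median 0.58). The difference between these classes was not tested directly. The test of the age difference in myeloid-like sums against the mean age difference of the other classes passed for none of the 5 by edgeR.

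A cluster of 91 nuclei with cycling and erythroid markers, too small in the adult library for the comparisons, held Rsad2 at 142 CPM (adult), 84.3 CPM (aged replicate 1) and 186 CPM (aged replicate 2), from 8, 10 and 30 UMIs, a mean of 137 CPM. Each value is above the 3 UMIs that a count of 0 allows.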

How the results depend on the processing

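With 1 adult library, edgeR's calls rest on the spread between 2 aged libraries and on that shared across genes. In NMSC-like, neuron-like and lymphocyte-like sums the shared spread carried nearly all the weight, and the p-values followed a normal curve. No paired analysis was possible because no label links an adult library to an aged one. Of the members called higher in SGC-like sums (4), DESeq2 and a fit of all classes together called 0, and thinning to 1000 UMIs called 1. Of all genes, these settings in that order called 178, 208 and 183 higher, where the fit reported above called 766. In NMSC-like sums (3 called), no filter, DESeq2 and a minimum of 2000 genes gave 0, a marker gate (each nucleus named by its own markers) 1, and clustering with interferon genes 5. These settings in that order called 0, 135, 254, 416 and 645 of all genes higher, against 586. In MSC-like sums (1 called), DESeq2, thinning and the joint fit gave 0, and called 76, 199 and 104 of all genes higher, against 419. In endothelial-like sums (0 called) the marker gate gave 1 called higher of 4 tested, where 122 of all 5362 genes were called higher. In myeloid-like sums (1 called lower), no filter, DESeq2, thinning, clustering with interferon genes, the marker gate, subtraction of free RNA and the joint fit gave 0. They called 582, 43, 149, 362, 201, 391 and 249 of all genes lower in that order, against 541. The cause of these losses was not tested. Among the values followed under every alternative, those that reversed were Ifit1 in SGC-like sums without aged replicate 2 (-0.0609, and 1.62 without aged replicate 1), Isg15 in SGC-like sums at over 2000 genes (0.20), Irf1 in myeloid-like sums under the marker gate (1.34) and Irf7 in the lymphocyte-like level under the marker gate (-0.12). The counts of genes at a higher level in endothelial-like and at a lower level in neuron-like sums stayed within 1.5 times under the alternatives run. Under the marker gate, though, Stat2 was counted in endothelial-like sums, Ifit1 was not, and Isg15 could not be tested. Other values that missed the threshold also changed sign, such as Irf1 in MSC-like sums without aged replicate 1 (-0.19, against 0.75) and Isg15 in fibroblast-like sums without the same library (-0.72, against 0.23). The marker gate left 71, 9 and 3 SGC-like nuclei and the minimum of 2000 genes 19 adult myeloid-like nuclei, so neither gave a value there. Under the joint fit and DESeq2 the log2 fold changes of the called genes in the glial classes kept their sign.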

Other observations

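A cluster of 169 nuclei with mixed SGC, fibroblast and endothelial markers, led by Ranbp3l, Atp13a5 and Ptgds, was left out of the classes. It was chosen after its values were seen. Stat2 was there at 217 CPM (adult), 123 CPM (aged replicate 1) and 153 CPM (aged replicate 2). In the same order Ifit3 was at 106, 82.2 and 41.6 CPM and Oasl2 at 219, 164 and 13.9 CPM. The aged values rest on 21 and 11 nuclei. An unnamed cluster of 456 nuclei, led by Slc1a2, Prss35 and Sfrp5, with the SGC markers Fabp7 and Kcnj10, held Ifit3 at 9.87, 28.3 and 38.6 CPM, with both aged libraries above the adult one.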
